A study of Homo sapiens with 9 samples.

Results

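The von Hippel-Lindau ligase and the oxygen sensors that feed it were followed in A375R, a BRAF inhibitor-resistant derivative of the human melanoma line A375, after a short exposure to molecules that carry a VHL ligand. The group was defined by gene name, and it was chosen with earlier results of these data known. Its members are VHL, CUL2, ELOB, ELOC, RBX1, HIF1A, EPAS1, ARNT, EGLN3 and HIF1AN, 10 of the 62710 genes in the table. All 10 passed the filter on low values, which EGLN1, EGLN2 and HIF3A, not among them, did not. Cells had received DMSO without either molecule (libraries labelled WT), the VHL ligand without its partner (VHL-r, 10 µM), or the complete bifunctional compound (R4VPL3-1, 10 µM). The last is a PROTAC-like chimera in which that ligand is linked to a binder of the SUMO-targeted ubiquitin ligase RNF4. Per the study's methods, A375R cells were cultured in medium with the BRAF inhibitor PLX4032, which the sample labels do not mention. Treatment lasted 2 h, with 3 biological repeats per condition and 9 libraries in all, every one from the single line A375R. The sample titles of the WT libraries name neither DMSO nor a time, and DMSO as the control is taken from the study's methods. The value columns of control replicates 2 and 3 are marked 2 h, and that of replicate 1 is not. The assay was poly(A)-selected RNA-seq, so mRNA was measured and no protein. Values are the authors' normalised read counts, meaning reads per gene divided by 1 size factor per library.

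As background, VHL is the substrate receptor of a cullin-RING ubiquitin ligase. Elongin B (ELOB) and elongin C (ELOC) attach VHL to the scaffold CUL2, and the RING protein RBX1 recruits the ubiquitin-conjugating enzyme. The ligase recognises the alpha subunits of the hypoxia-inducible factors, HIF-1α (HIF1A) and HIF-2α (EPAS1), once prolyl hydroxylases of the EGLN family have modified them in the presence of oxygen. Without hydroxylation, or when the VHL pocket is occupied by a ligand, the alpha subunits escape destruction, pair with ARNT and activate genes, EGLN3 among them. HIF1AN, also called FIH, is an asparaginyl hydroxylase that blocks coactivator binding to the alpha subunits.

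The libraries held 26435568 to 32085626 reads assigned to genes, and size factors ran from 0.9341 to 1.1012. Of 11 melanoma and melanocyte markers, 7 had a mean of at least 10 normalised reads, with SOX10 between 7900.4 and 17935 and PRAME between 2882 and 3519, whereas MLANA and MIA were listed at 0 and TYR did not exceed 2.14. The summed level of these 11 markers was 26055 to 28143 in DMSO, 16712 to 20538 in VHL-r and 15098 to 17899 in R4VPL3-1. The sum thus moved with treatment, and its part in the results below was not tested. SOX10 had the widest range in reads of the 11, so the sum does not show that every marker fell. Over the 9 libraries MITF ran from 893 to 1994, DCT from 914 to 1782, S100A1 from 1856 to 2349 and S100B from 584 to 772. Among markers of other cell types, 3 of 4 keratinocyte and 4 of 4 fibroblast genes also had means of at least 10, and the 4 leukocyte markers together summed to at most 11.8 in any library. A smaller share of cells with a transcript and less transcript per cell cannot be told apart in bulk RNA.

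Of the 10 members, 3 moved with treatment at the mRNA level: EGLN3 and EPAS1 rose and HIF1A fell, with either molecule against DMSO. The other 7, including VHL itself and every other ligase subunit, passed the test in no comparison. No member passed the test between R4VPL3-1 and VHL-r, the 1 pair of related molecules compared, which were given at the same dose for the same time and differ by the RNF4-binding part and its linker. Beside the 3 of 10 members called for VHL-r against DMSO stood 19.8% of all 15230 genes tested, and for R4VPL3-1 against DMSO 3 of 10 members stood beside 24.9%. The 2 members that rose stood beside 10.3% of genes called higher for VHL-r and 13.1% for R4VPL3-1, and the 1 that fell beside 9.51% and 11.8% called lower. Between the molecules 0 of 10 members were called by limma, 0 had an unadjusted p under 0.05, and edgeR and DESeq2 also called 0, against 1.87% of all genes called (1.14% higher and 0.729% lower). The 3 libraries of one condition lay wholly to one side of the other condition's for 4 members in VHL-r against DMSO, 3 in R4VPL3-1 against DMSO and 1 in R4VPL3-1 against VHL-r, where 34.3%, 38.0% and 14.1% of all genes did so. With 10 members, counts of this size lie near what these shares give and are no result about the set. The median log2 fold change of the members was -0.0058, -0.0062 and -0.044 in the same order, and that of all genes -0.0045, -0.0063 and -0.0056. The 2 medians were close against DMSO, and that of the members was lower between the molecules, where every member's interval crossed 0. Both contrasts against DMSO use the same 3 control libraries.

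**Figure D1:**
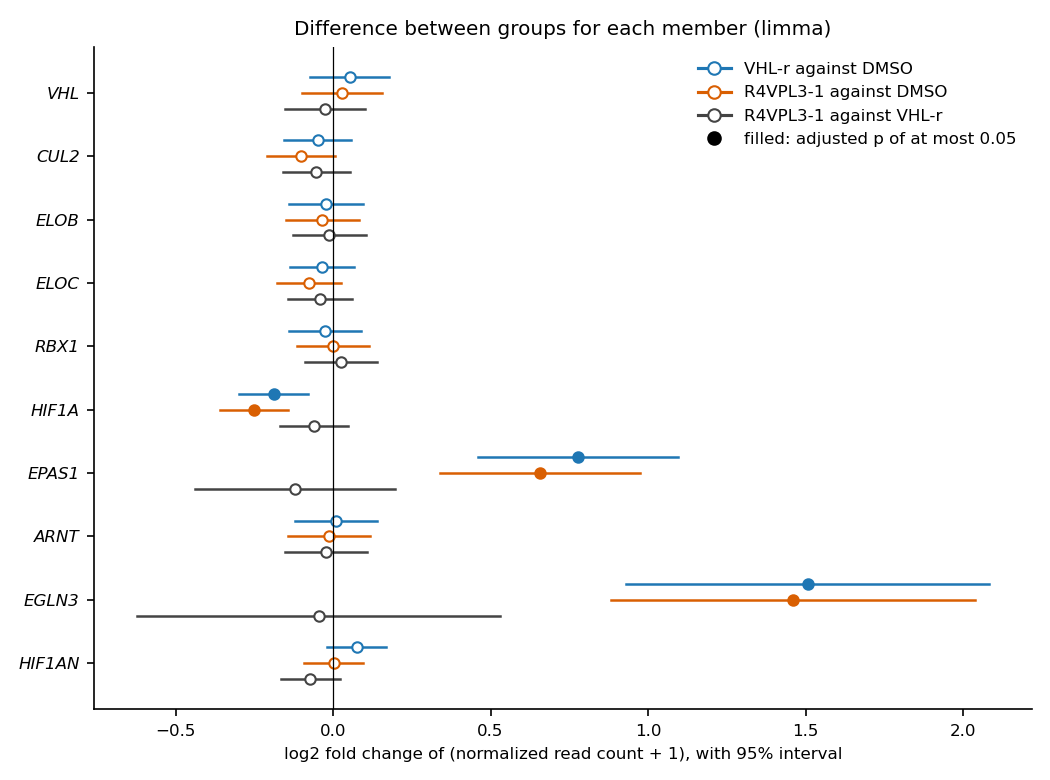
Log2 fold change of each member on the log2(normalised read count + 1) scale (x axis) with its 95% interval, in 3 comparisons of 3 against 3 libraries; filled points have an adjusted p of at most 0.05. Filled points appear for HIF1A on the left of 0 and for EPAS1 and EGLN3 on the right, in both comparisons with DMSO, and every interval of R4VPL3-1 against VHL-r crosses 0.

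The sequences just upstream of the 3 members that moved are shown because HIF acts through a short core motif in DNA and these genes changed in the same comparisons. Each run is the 250 bases before the RefSeq transcription start site on GRCh38.p14, read 5′ to 3′ on the gene's strand, at chr14:33951075-33951324 (minus strand) for EGLN3, chr2:46297157-46297406 (plus strand) for EPAS1 and chr14:61695263-61695512 (plus strand) for HIF1A. Capitals mark ACGTG or GCGTG on either strand, the core letters of a hypoxia response element.
EGLN3: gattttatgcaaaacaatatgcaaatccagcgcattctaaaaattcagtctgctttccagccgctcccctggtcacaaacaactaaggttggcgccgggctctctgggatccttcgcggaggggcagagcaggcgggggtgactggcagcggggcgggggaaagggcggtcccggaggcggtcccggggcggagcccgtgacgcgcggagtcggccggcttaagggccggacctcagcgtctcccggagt
EPAS1: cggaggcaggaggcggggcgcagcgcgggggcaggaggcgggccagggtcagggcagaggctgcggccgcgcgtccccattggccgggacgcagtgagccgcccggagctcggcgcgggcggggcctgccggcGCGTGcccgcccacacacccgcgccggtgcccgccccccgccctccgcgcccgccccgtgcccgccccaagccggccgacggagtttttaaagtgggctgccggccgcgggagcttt
HIF1A: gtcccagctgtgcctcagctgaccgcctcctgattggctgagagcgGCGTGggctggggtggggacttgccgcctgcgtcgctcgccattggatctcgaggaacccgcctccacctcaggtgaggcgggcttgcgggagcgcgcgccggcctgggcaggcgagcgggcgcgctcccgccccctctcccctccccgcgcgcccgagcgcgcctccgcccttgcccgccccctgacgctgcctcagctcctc
EPAS1 held 1 GCGTG, which begins 117 bases before the start site, and HIF1A held 1 GCGTG at 204 bases before it. The EGLN3 run held neither, and sequence outside these 250 bases was not searched for any gene. Of the 8 members with an entry, 4 (ELOB, RBX1, HIF1A and EPAS1) held at least 1 of these motifs, counting overlapping matches on both strands, compared with 43.2% of 35116 promoters of the same length (18.5% for ACGTG and 32.2% for GCGTG). A match of letters is a description of the window and not a binding site.

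Among the ligase subunits, VHL mRNA stayed within the scatter of the controls. VHL (chromosome 3, 10141778 to 10153667, GRCh38, plus strand) had 1532, 1752 and 1823 normalised reads in the DMSO libraries, 1757, 1794 and 1731 in the VHL-r libraries and 1653, 1796 and 1745 in the R4VPL3-1 libraries. The lowest of the 9 was a DMSO library, and all 3 groups overlapped. The log2 fold change was 0.05 for VHL-r against DMSO (95% interval -0.07 to 0.18, limma adjusted p = 0.625) and 0.03 for R4VPL3-1 against DMSO (-0.10 to 0.15, adjusted p = 0.795). Between R4VPL3-1 and VHL-r it was -0.03 (interval -0.15 to 0.10, limma adjusted p = 0.962).

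The adaptor, scaffold and RING subunits did not pass the test either. ELOB, the elongin adaptor shared with other receptors, lay between 2360 and 2724 normalised reads over the 9 libraries, and ELOC, its partner, between 3634 and 4124. RBX1, the RING subunit shared by several cullins, lay between 1048 and 1109.8, with coefficients of variation of 1.57%, 2.76% and 1.47% in DMSO, VHL-r and R4VPL3-1. CUL2, the scaffold, had its highest mean in DMSO (2029 ± 60.5, SD, n = 3) and its lowest in R4VPL3-1 (1890.5 ± 88.9), with overlapping libraries. Its log2 fold change for R4VPL3-1 against DMSO, -0.10 (interval -0.21 to 0.0045), was the one farthest from 0 among the subunits and had a limma adjusted p of 0.160. Over VHL, CUL2, ELOB, ELOC, RBX1, ARNT and HIF1AN, the 7 members not called against DMSO, the 95% intervals reached from -0.16 to 0.18 for VHL-r and from -0.21 to 0.15 for R4VPL3-1 on the log2 scale, so larger changes of mean than these bounds lay outside the intervals. For R4VPL3-1 against VHL-r the intervals of these 7 and of HIF1A reached from -0.17 to 0.14.

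The HIF alpha subunits moved in opposite directions. EPAS1, which encodes HIF-2α (chromosome 2, 46293667 to 46386697, plus strand), was expressed at a low level and rose with both molecules. The DMSO libraries held 99.9, 80.7 and 80.1 normalised reads, the VHL-r libraries 146.1, 134 and 168, and the R4VPL3-1 libraries 132, 116 and 167. Every treated library was above every DMSO library, and the VHL-r and R4VPL3-1 libraries overlapped. The log2 fold change against DMSO was 0.78 with VHL-r (SE 0.15, interval 0.46 to 1.10, limma adjusted p = 7.72e-04), a ratio of 1.71, and 0.66 with R4VPL3-1 (SE 0.15, interval 0.34 to 0.97, limma adjusted p = 0.00277), a ratio of 1.58. Between the molecules the difference was -0.12 with the wide interval of -0.44 to 0.20 (limma adjusted p = 0.904), so a difference of either sign within those bounds was not detectable here.

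HIF1A, which encodes HIF-1α (chromosome 14, 61695513 to 61748259, plus strand), was far more abundant and fell modestly. It had 3477, 3162 and 3050.3 normalised reads in DMSO, 2810, 2953 and 2726 in VHL-r, and 2707, 2677 and 2750.3 in R4VPL3-1. All treated libraries were below all DMSO libraries, and the DMSO library of replicate 1 stood above the other 2 controls. With R4VPL3-1 the fitted level, taken back from the log2 scale, fell by 15.9% (log2 fold change -0.25, SE 0.05, interval -0.36 to -0.14, limma adjusted p = 0.00105). With VHL-r it fell by 12.3% (log2 fold change -0.19, SE 0.05, interval -0.30 to -0.08, limma adjusted p = 0.0123). The call for VHL-r rested on single libraries: without DMSO replicate 1 the log2 fold change was -0.13 with a limma adjusted p of 0.0969, and without VHL-r replicate 3 it was -0.16 with 0.0512. The R4VPL3-1 call held whichever library was left out, with adjusted p up to 0.0110. R4VPL3-1 against VHL-r gave -0.06 (interval -0.17 to 0.05, limma adjusted p = 0.826), so the difference between the molecules lay within its error. Same-strand exons of an annotated long noncoding RNA, ENSG00000258964, overlap 2.87% of the HIF1A exon bases, and 0.96% of its 100-base windows occur in transcripts of other genes.

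ARNT, the constitutive partner of both alpha subunits, lay between 867 and 973 normalised reads (825 to 986 reads). Its groups overlapped in every comparison, with log2 fold changes of 0.01 for VHL-r and -0.01 for R4VPL3-1 against DMSO (limma adjusted p = 0.938 and 0.921).

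Of the hydroxylases, EGLN3 showed the largest relative change of the 10 members. EGLN3, the prolyl hydroxylase PHD3 (chromosome 14, 33924227 to 34462774, minus strand), was barely expressed in DMSO. The control libraries held 7.26, 13.8 and 14.2 normalised reads (8, 14 and 14 reads), the VHL-r libraries 39.0, 33.6 and 29.7 (39, 32 and 29 reads) and the R4VPL3-1 libraries 31.8, 35.8 and 31.1 (34, 36 and 29 reads). Each treated library held more than any control, and the treated groups overlapped. On the log2(value + 1) scale, which understates the change of low genes, the difference from DMSO was 1.51 with VHL-r (SE 0.28, interval 0.93 to 2.08, limma adjusted p = 4.13e-04), a ratio of 2.84, and 1.46 with R4VPL3-1 (SE 0.28, interval 0.88 to 2.04, limma adjusted p = 4.35e-04), a ratio of 2.75. R4VPL3-1 differed from VHL-r by -0.05, and at this depth the interval ran from -0.62 to 0.53 (limma adjusted p = 0.986). With 8 to 39 reads per library, the counts limit the precision of these ratios.

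HIF1AN, the asparaginyl hydroxylase, had 2741, 2790.2 and 2658 normalised reads in DMSO, 2897, 2915 and 2809 in VHL-r, and 2658, 2769 and 2773 in R4VPL3-1. The VHL-r libraries lay above all others, yet neither difference passed the test. The log2 fold change was 0.07 for VHL-r against DMSO (interval -0.02 to 0.17, limma adjusted p = 0.294) and -0.07 for R4VPL3-1 against VHL-r (interval -0.17 to 0.02, limma adjusted p = 0.689). HIF1AN was thus not called, although its groups did not overlap in those comparisons.

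Relative levels of the machinery were compared per kb of the canonical transcript. In DMSO the order was ELOB at 2652 normalised reads per kb, ELOC at 1975, RBX1 at 934, HIF1A at 819, CUL2 at 485, VHL at 386, HIF1AN at 211, ARNT at 196, EPAS1 at 16.9 and EGLN3 at 4.34. Thus the elongins exceeded the receptor they carry, and HIF1A exceeded EPAS1. Ranges over the 3 libraries of neighbours in this order did not overlap in any group, and the order was the same in all 3 groups. The order depends on the length used: per kb of all annotated exons HIF1A came first (627), ELOB second (452) and CUL2 eighth (140.0), and neighbours such as RBX1 (353) and VHL (340.4) then had overlapping ranges in DMSO. EPAS1 and EGLN3 were the lowest of the 10 under both lengths, EPAS1 at 29.0 with VHL-r and 26.8 with R4VPL3-1, and EGLN3 at 12.6 and 12.1 per kb of canonical transcript.

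The other HIF hydroxylases and subunits were mostly too low to test. EGLN1 (PHD2, the main HIF prolyl hydroxylase) had a mean of 0.214, and EGLN2 (PHD1) was listed at 0 in every library. Exons of other genes on the same strand, those of ENSG00000287856 and of the read-through gene RAB4B-EGLN2 among them, cover 69.3% and 95.8% of their canonical transcripts, and htseq-count by default does not assign reads that fall on exons of more than 1 gene, so these values are not read as their expression. HIF3A, a further alpha subunit, had a mean of 1.25. ARNT2, the ARNT paralogue, averaged 1268 ± 99.1 in DMSO, 1199 ± 88.9 in VHL-r and 1155 ± 98.7 in R4VPL3-1 (SD, n = 3), and was not called (log2 fold change -0.08 and -0.14 against DMSO, limma adjusted p = 0.510 and 0.195). Of the 8 genes in this list 4 were tested, and 1 was called, KDM6A, an oxygen-sensitive histone demethylase (chosen for naming after its value was seen), which was 987 ± 50.6 in DMSO and 1222 ± 78.2 with R4VPL3-1 (SD, n = 3, log2 fold change 0.31, limma adjusted p = 0.00247). With 24.9% of all genes called in that comparison, 1 of 4 is at the background and no result about the list. This list and the following ones are of genes around the members and were set from textbook roles, with earlier results of these data known.

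The remaining cullins and their core subunits gave 0 calls by limma, edgeR or DESeq2 among 10 genes in each comparison, with an unadjusted limma p under 0.05 for 3 genes in R4VPL3-1 against DMSO and 0 in the other comparisons. CUL5, the cullin that partners the elongins with SOCS-box receptors, was lower in all treated libraries than in DMSO, with log2 fold changes of -0.09 (VHL-r, limma adjusted p = 0.314) and -0.12 (R4VPL3-1, limma adjusted p = 0.148). RNF7, its RING partner, averaged 80.7 ± 14.5 in DMSO, 90.7 ± 15.1 in VHL-r and 81.4 ± 2.83 in R4VPL3-1 (SD, n = 3) with no call. Of 28 tested genes of neddylation and cullin regulation, 5 rose and 1 fell with VHL-r, 5 rose and 2 fell with R4VPL3-1 against DMSO, and between the molecules 0 were called by limma, edgeR or DESeq2 and 0 had an unadjusted p under 0.05. Over all genes 19.8% were called for VHL-r and 24.9% for R4VPL3-1 against DMSO, so these counts are near the background and are no result about the list. Between the molecules 1.87% of all genes were called, so 0 calls among 10 or 28 genes is near that share and no result about either list. UBE2D1, a ubiquitin-conjugating enzyme that works with RBX1, rose from 595 ± 56.2 to 796 ± 68.1 with VHL-r and to 785 ± 19.1 with R4VPL3-1 (limma adjusted p = 4.18e-04 and 4.76e-04). UBE2R2, another conjugating enzyme of cullin ligases, fell from 3437 ± 94.0 to 2935 ± 143 and 2892 ± 88.4 (limma adjusted p = 0.00162 and 5.57e-04). NEDD8 and UBE2F were listed at 0 in every library. Same-strand exons of the read-through genes NEDD8-MDP1 and UBE2F-SCLY cover 44.2% and 32.2% of their canonical transcripts, and the listed zeros are not read as absence of expression.

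Other receptors and proteins that bind the same elongin adaptors, or that CUL2 carries, were counted against DMSO. Of 30 tested, 10 rose and 4 fell with VHL-r, where 10.3% of all genes were called higher and 9.51% lower. With R4VPL3-1, 8 rose and 7 fell, where 13.1% and 11.8% were called. SOCS1, a SOCS-box inhibitor of cytokine signalling, rose from 5.45, 0 and 5.07 normalised reads in DMSO to 42.0, 42.0 and 30.7 with VHL-r and 41.1, 38.8 and 53.5 with R4VPL3-1 (limma adjusted p = 1.87e-05 and 6.15e-06). SOCS2, of the same family, fell from 251 ± 7.21 to 137 ± 15.8 and 137 ± 19.2 (SD, n = 3, limma adjusted p = 3.06e-05 and 2.12e-05). PRAME, a CUL2 receptor and melanoma antigen, was not called (log2 fold change -0.02 and -0.07 against DMSO, limma adjusted p = 0.869 and 0.512). Between the molecules 2 of 30 were called lower with R4VPL3-1 and 0 higher, where 0.729% and 1.14% of all genes were: ELOA, the elongin A subunit that shares ELOB and ELOC (log2 fold change -0.16, limma adjusted p = 0.0488), and SOCS3 (-0.35, limma adjusted p = 0.0406). Both calls were close to the threshold: ELOA kept its call in 6 of 19 alternatives at the same threshold without a replicate block and SOCS3 in 14, and without R4VPL3-1 replicate 1 their adjusted p was 0.237 and 0.294. ELOA was also lower with R4VPL3-1 than with DMSO, 7680 ± 176 against 8800.4 ± 262 (limma adjusted p = 9.46e-04). SOCS3 was 560 ± 43.0 in DMSO, 810 ± 94.9 with VHL-r and 633 ± 60.4 with R4VPL3-1 (SD, n = 3). The SOCS3 mean with R4VPL3-1 thus lay between those of DMSO and VHL-r, and the rise with VHL-r against DMSO was called in 19 of 19 alternatives.

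Among 17 tested regulators and coactivators of HIF, 4 rose and 3 fell with VHL-r against DMSO, beside 10.3% and 9.51% of all genes. With R4VPL3-1 against DMSO 8 rose and 4 fell, beside 13.1% and 11.8%. WSB1, an elongin-binding receptor reported to act on VHL, rose from 1347 ± 67.4 to 2282 ± 73.3 with VHL-r and 2445 ± 298 with R4VPL3-1 (SD, n = 3, limma adjusted p = 5.17e-08 and 5.31e-09). CITED2, which competes with HIF for coactivators, fell from 1020.2 ± 167 to 712 ± 31.6 and 660 ± 36.7 (limma adjusted p = 3.04e-04 and 2.58e-05). Between the molecules 2 of 17 were higher with R4VPL3-1, beside 1.14% of all genes: the chaperone HSP90AA1, which stabilises HIF-1α (log2 fold change 0.36, SE 0.05, limma adjusted p = 6.59e-05), and SIAH2, a ligase for prolyl hydroxylases (0.35, SE 0.07, limma adjusted p = 0.00489). Without R4VPL3-1 replicate 1, SIAH2 had a limma adjusted p of 0.0562.

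HIF target genes, which the alpha subunits activate together with ARNT, were the readout nearest to the members. Of 28 tested, 7 rose and 3 fell with VHL-r against DMSO, where 10.3% of all genes were called higher and 9.51% lower, the latter near the share of the list that fell. With R4VPL3-1 against DMSO 16 rose and 1 fell, beside 13.1% and 11.8% of all genes. Between the molecules 9 were higher and 0 lower with R4VPL3-1 than with VHL-r, beside 1.14% and 0.729%. The median log2 fold change of the list between the molecules was 0.17, against -0.0056 over all genes. ANKRD37, a HIF-induced ankyrin repeat gene, went from 169 ± 5.08 in DMSO to 235 ± 22.8 with VHL-r and 658 ± 112 with R4VPL3-1 (SD, n = 3), a difference of 1.47 between the molecules (SE 0.11, limma adjusted p = 2.97e-08). KDM3A, a HIF-induced histone demethylase, rose from 2169 ± 124 to 3095 ± 103 with VHL-r (limma adjusted p = 5.57e-06) and was higher again with R4VPL3-1 at 4149 ± 466 (limma adjusted p = 4.22e-04 against VHL-r). SLC2A3 likewise rose from 844 ± 22.0 to 1364 ± 67.9 with VHL-r and was 1783 ± 86.0 with R4VPL3-1 (limma adjusted p = 3.15e-04 against VHL-r). DDIT4, a stress-responsive inhibitor of mTORC1, was lower with VHL-r (2261 ± 167) than with DMSO (3265 ± 78.0) (limma adjusted p = 0.00477) and higher with R4VPL3-1 (14828 ± 4259) than with VHL-r (limma adjusted p = 1.15e-11). ADM, the adrenomedullin gene, was also lower with VHL-r (387 ± 62.5) than with DMSO (583 ± 42.3, limma adjusted p = 0.00102), and was higher with R4VPL3-1 (725 ± 137) than with VHL-r (log2 fold change 0.90, limma adjusted p = 8.39e-05). PFKFB4 went the other way, from 1429 ± 119 in DMSO to 970 ± 95.9 with VHL-r and 960 ± 116 with R4VPL3-1 (SD, n = 3). It was called lower than DMSO with either molecule and was not called between them (log2 fold change -0.02, limma adjusted p = 0.984). EGLN3, a HIF-inducible gene counted here among the members and not in the list, had a difference between the molecules of -0.05 (interval -0.62 to 0.53). The DDIT4 fall with VHL-r lost its call under limma's robust option (adjusted p = 0.158) and under DESeq2 (0.0529).

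**Figure D2:**
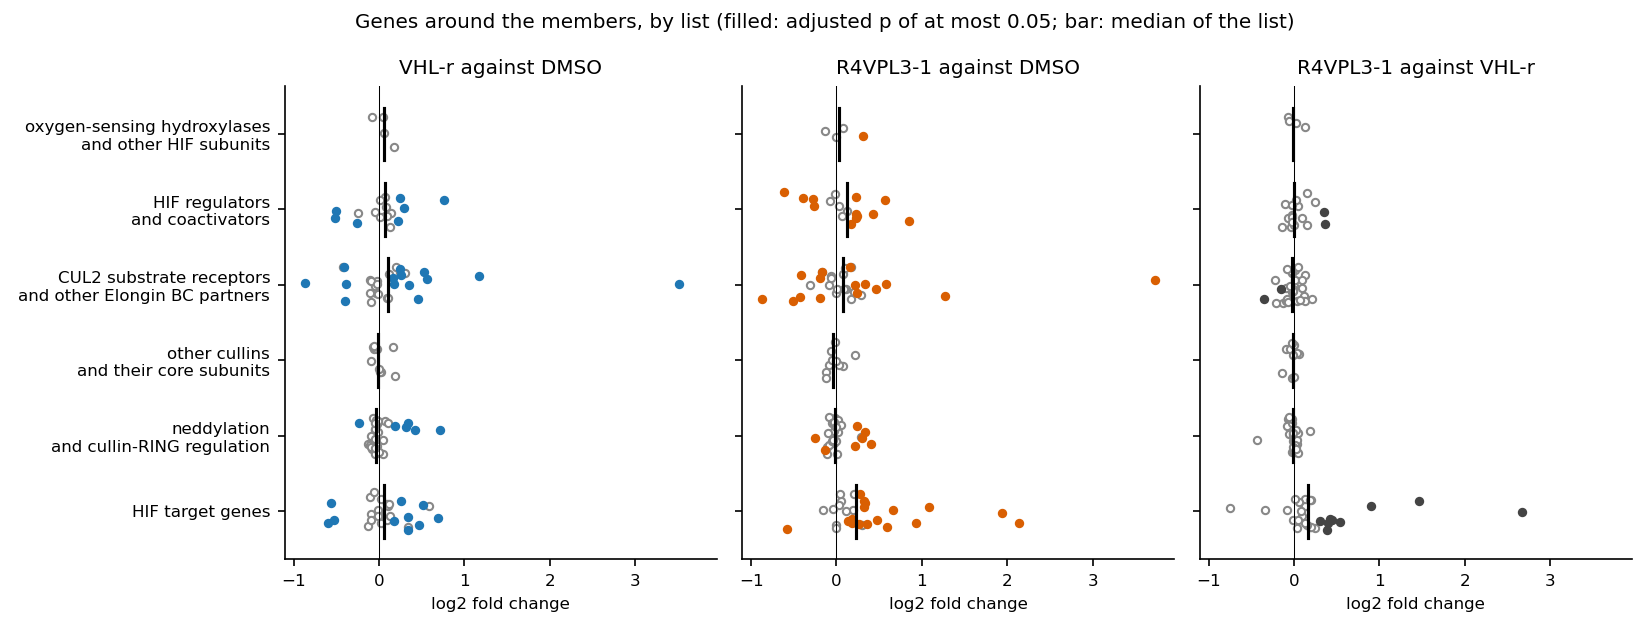
Log2 fold change (x axis) of the tested genes of 6 lists around the members, in 3 comparisons; points are genes, filled where the adjusted p is at most 0.05, bars are list medians, and vertical scatter only separates points. HIF target genes hold 9 filled points between the molecules, all to the right of 0, and the other cullins hold none in any comparison.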

How the data were processed

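RNA-seq was made from 9 samples of A375R cells (3 per treatment). Per the study's methods, the authors aligned single 100-base reads to GRCh38 with STAR, counted reads per gene on the reverse strand with htseq-count and normalised them with DESeq2 (version 1.36.0 in the submitters' processing notes). The deposited signal is a normalised read count per gene and library: reads divided by a size factor. Within 0.1 reads, 100% of the values were whole reads after multiplication by the recovered size factors. For VHL-r replicate 1 and R4VPL3-1 replicate 2 the size factors (0.9993 and 1.0051) are so near 1 that this check is weak, so their read counts are less certain. Genes averaging 10 or more across all 9 libraries (15230) were tested on log2(value + 1) with limma 3.58.1 (trend, R 4.3.3) in 1 single-factor fit of all libraries. A gene was called when its p, adjusted by the Benjamini-Hochberg method over every gene tested, was 0.05 or lower, and intervals are 95%. The fit was tested on simulated data. edgeR 4.0.16 and DESeq2 1.42.0 on recovered reads, other scalings, filters, pseudocounts (0.1 and 5), thresholds, a replicate block and leaving out each library were alternatives. The paper's model is DESeq2 on counts; limma was used because the deposited values are normalised.

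All 10 members were named, with 8 fixed neighbours and, per list, up to 3 genes called in each direction for R4VPL3-1 against VHL-r and for VHL-r against DMSO, from which a selection is given. Members and lists were chosen with earlier results of these data known. Lengths and overlaps come from GENCODE 44, in which 62639 genes matched and 62433 had the same coordinates; upstream sequences come from RefSeq on GRCh38.p14, matched by symbol for 8 members. Of the table's value columns, all were used. Libraries of one treatment differed by more than sampling noise. Exon overlap and shared 100-base windows were 0% for EGLN3 and EPAS1.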

Additional observations from a re-analysis of the deposited data

How the results depend on the processing

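The members called for VHL-r against DMSO, R4VPL3-1 against DMSO and R4VPL3-1 against VHL-r numbered 3, 3 and 0, and an alternative moved a count only where it removed HIF1A or EGLN3, as given here. Of 657 member values recomputed, 631 kept their direction and side of the threshold, 23 changed sign and 3 lost a call. The 3 lost calls are all of HIF1A with VHL-r against DMSO (adjusted p of at most 0.01 as the threshold, without DMSO replicate 1 and without VHL-r replicate 3). Every member that changed sign was uncalled, with values near 0. Under TMM rescaling, upper-quartile rescaling and edgeR, RBX1 for R4VPL3-1 against DMSO was 0.0072, 0.017 and 0.0091 in log2 fold change, and ARNT was 0.0058 under upper-quartile rescaling. Over the fits that leave out 1 library, the log2 fold changes of the members and listed genes that changed sign ranged as follows. For R4VPL3-1 against VHL-r, VHL ranged from -0.052 to 0.0079, ELOB from -0.066 to 0.037, ARNT from -0.073 to 0.011, EGLN3 from -0.14 to 0.053, PRAME from -0.093 to 0.026 and CUL5 from -0.071 to 0.017. For R4VPL3-1 against DMSO, VHL ranged from -0.047 to 0.079, ELOB from -0.066 to 0.00032, RBX1 from -0.011 to 0.012, ARNT from -0.045 to 0.014, HIF1AN from -0.017 to 0.022 and RNF7 from -0.070 to 0.17. For VHL-r against DMSO, VHL ranged from -0.022 to 0.10, ELOB from -0.072 to 0.032, ARNT from -0.023 to 0.061 and PRAME from -0.092 to 0.031. The cause was not tested.

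Genes called between the molecules numbered 182 without R4VPL3-1 replicate 1 against 285 with all libraries, and at an adjusted p of at most 0.01 the calls against DMSO were 2494 for R4VPL3-1 and 1885 for VHL-r against 3792 and 3016. A filter at a mean of 50 left EGLN3 untested. Same-numbered libraries of different treatments had correlations of deviations between -0.0056 and 0.121, 2 of 9 of them over 0.1. Pairs with other numbers ran from -0.148 to 0.098, with 0 of 18 over 0.1. Whether libraries of one number share a source of variation was not tested. A replicate block left the members called at 3, 3 and 0. Over all genes the block raised the limma calls to 389 between the molecules, 4241 for R4VPL3-1 against DMSO and 3451 for VHL-r against DMSO. In DESeq2 the block lowered the calls in the same order, from 322 to 309, from 3357 to 3150 and from 2641 to 2449. Of the 10 other cullin genes 1 was called lower by limma with R4VPL3-1 against DMSO under the block, with a filter at a mean of 50 and without VHL-r replicate 1. Depth limits EGLN3 and EPAS1 most, with 8 to 39 and 79 to 164 reads per library.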
